A study of Mus musculus with 14 samples.

Results

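Open chromatin peaks whose centre lies in a simple repeat or in low-complexity sequence made up 723 of the 92842 peaks (0.779%, exact 95% interval 0.723 to 0.837) in a merged list from 7 mouse blood cell populations. They were taken by their label alone: every peak whose detailed annotation names the class Simple_repeat or Low_complexity was kept. The assay was ATAC-seq, where a Tn5 transposase inserts adapters into accessible chromatin, done on cells sorted from wild-type C57BL/6 mice of 8 to 12 weeks. Bone marrow gave the progenitors labelled MPP (multipotent), CMP (common myeloid), CLP (common lymphoid), GMP (granulocyte and macrophage), MEP (megakaryocyte and erythroid) and ProB (B cell), and thymus gave ProT (T cell), with 2 libraries each and 14 in all. All groups share the strain and the wild-type state, and the labels do not say whether libraries came from separate animals. The merged list carries no column for a library or a cell type, so no level of accessibility, no replicate spread and no comparison between cell types could be had, and the sequencing depth is unknown. Intervals below are exact (Clopper-Pearson), while the limit given for a count of 0 is 3 counts of the total, and both cover counting error only.

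Simple repeats, or microsatellites, are runs of a short unit copied head to tail, which grow and shrink in number when the polymerase slips during replication. Low-complexity sequence is not a clean run but is dominated by few bases, such as long stretches rich in C or in purines. Runs of this kind can hold the short core motifs of DNA binding proteins many times over, can take up DNA forms other than the usual helix, and are harder to place with short reads than single-copy sequence. How well reads could be placed in these repeats is not recorded in the list, and its part in the counts below was not tested.

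The letters of the peaks can be shown where a peak centre falls into a promoter window of a RefSeq gene (GRCm38.p6, 250 bp before to 50 bp after the annotated start). That was the case for 11 of the 723 members, in windows of 300 bases. Most of these starts belong to predicted genes and are not the TSS to which the list measures its distance. The 5 windows below show several kinds of repeat: a purine run, a CCTG run, a GC pentanucleotide, a C run and an A run. None of the 11 windows belongs to a dinucleotide, the most frequent kind of simple repeat in the set. Capitals mark at least 2 copies of the unit in a row, at least 6 bases for the A run, or at least 5 identical C or G in the low-complexity window, on either strand. They mark such runs anywhere in the window, and the peak centre need not lie in one. It lies in a marked run in Gm4123 (base 209) and Gm36077 (base 47). In Trak1 it is base 277, past the marked run. In 8430419K02Rik it is base 91, before the marked runs, and in Gm39853 base 75, between marked runs. Gm4123 (chr4:141535299-141535598, plus strand) lies in an intron of Spen, a transcriptional corepressor gene, with a peak labelled (GGGA)n 3.09 kb downstream of the Spen TSS. Gm36077 (chr1:151083871-151084170, minus strand) holds a peak labelled (CCTG)n. Trak1 (chr9:121297252-121297551, plus strand), which encodes an adaptor for mitochondrial transport, holds a peak labelled (CGGGG)n that the list gives to Ulk4, 20.4 kb away. 8430419K02Rik (chr11:18877553-18877852, minus strand) holds a G-rich peak that the list gives to Meis1, a homeobox gene of blood stem cells, 141 kb downstream of its TSS. Gm39853 (chr2:75613142-75613441, plus strand) holds a peak labelled (A)n that the list gives to Hnrnpa3, 46.0 kb upstream.
Gm4123: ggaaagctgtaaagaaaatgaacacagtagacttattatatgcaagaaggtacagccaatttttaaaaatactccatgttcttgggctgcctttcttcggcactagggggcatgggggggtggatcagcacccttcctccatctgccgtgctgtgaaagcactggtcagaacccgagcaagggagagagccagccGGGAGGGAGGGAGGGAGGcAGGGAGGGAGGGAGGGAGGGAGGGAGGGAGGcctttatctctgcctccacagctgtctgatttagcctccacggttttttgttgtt
Gm36077: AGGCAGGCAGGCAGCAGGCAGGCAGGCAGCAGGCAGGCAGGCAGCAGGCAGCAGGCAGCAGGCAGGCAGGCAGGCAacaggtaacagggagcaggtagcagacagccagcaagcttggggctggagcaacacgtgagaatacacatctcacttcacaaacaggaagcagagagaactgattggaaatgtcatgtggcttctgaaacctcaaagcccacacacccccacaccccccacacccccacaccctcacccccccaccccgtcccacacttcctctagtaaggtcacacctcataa
Trak1: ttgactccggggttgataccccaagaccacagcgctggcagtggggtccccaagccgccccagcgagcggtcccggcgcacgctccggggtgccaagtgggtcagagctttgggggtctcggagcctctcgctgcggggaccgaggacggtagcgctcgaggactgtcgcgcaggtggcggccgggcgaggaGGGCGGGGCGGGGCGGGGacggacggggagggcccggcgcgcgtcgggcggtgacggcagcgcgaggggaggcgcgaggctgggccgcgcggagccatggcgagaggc
8430419K02Rik: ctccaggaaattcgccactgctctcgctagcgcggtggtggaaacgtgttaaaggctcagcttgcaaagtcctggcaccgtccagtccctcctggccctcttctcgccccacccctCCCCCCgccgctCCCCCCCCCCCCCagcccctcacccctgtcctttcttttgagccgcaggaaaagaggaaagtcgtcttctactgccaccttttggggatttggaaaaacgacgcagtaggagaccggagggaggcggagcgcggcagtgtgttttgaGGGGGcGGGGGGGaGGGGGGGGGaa
Gm39853: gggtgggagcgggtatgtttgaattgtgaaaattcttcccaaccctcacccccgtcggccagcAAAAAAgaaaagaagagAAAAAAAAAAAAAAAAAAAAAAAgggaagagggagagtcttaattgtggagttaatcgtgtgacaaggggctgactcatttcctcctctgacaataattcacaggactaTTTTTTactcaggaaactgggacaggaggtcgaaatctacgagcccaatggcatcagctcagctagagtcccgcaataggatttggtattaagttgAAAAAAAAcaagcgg

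The longest marked run was 76 bases in the Gm36077 window, 31 in Gm4123, 23 in Gm39853, 18 in Trak1 and 13 in 8430419K02Rik. In Gm36077 the run is broken by missing bases but never leaves the unit for long, while in Trak1 the unit fills only a small part of a window of 76.3% GC. Of all 32817 different promoter windows in the RefSeq table, 139 (0.424%) held GGGAGGGAGGGA or its reverse complement, 27 (0.0823%) held CCTGCCTGCCTG, 1051 (3.20%) held CGGGGCGGGG, 1061 (3.23%) held AAAAAAAAAAAA and 1376 (4.19%) held CCCCCCCC, each searched on both strands. The run of Gm36077 was the rarest of the 5 motifs searched and the C run the most frequent. The motifs differ in length, the C run being the shortest, so this order does not compare kinds of repeat at equal length. All 5 simple-repeat windows that hold copies of their unit had more of them on the plus strand in the reading given by the name, so the name of a repeat gives its letters on the plus strand.

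Simple repeats made up 483 members (66.8%, 63.2 to 70.2) and low-complexity sequence 240 (33.2%, 29.8 to 36.8). The 483 simple repeats carried 106 different names, which came to 71 unit classes once the rotations and the reverse complement of a unit were joined, and no unit was longer than 6 bases. Dinucleotides led with 223 members (30.8% of all), ahead of 90 pentanucleotides, 82 tetranucleotides, 35 trinucleotides, 29 hexanucleotides and 24 mononucleotides. Their order does not follow the length of the unit, since tri- and hexanucleotides were both fewer than tetra- and pentanucleotides.

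**Figure D1:**
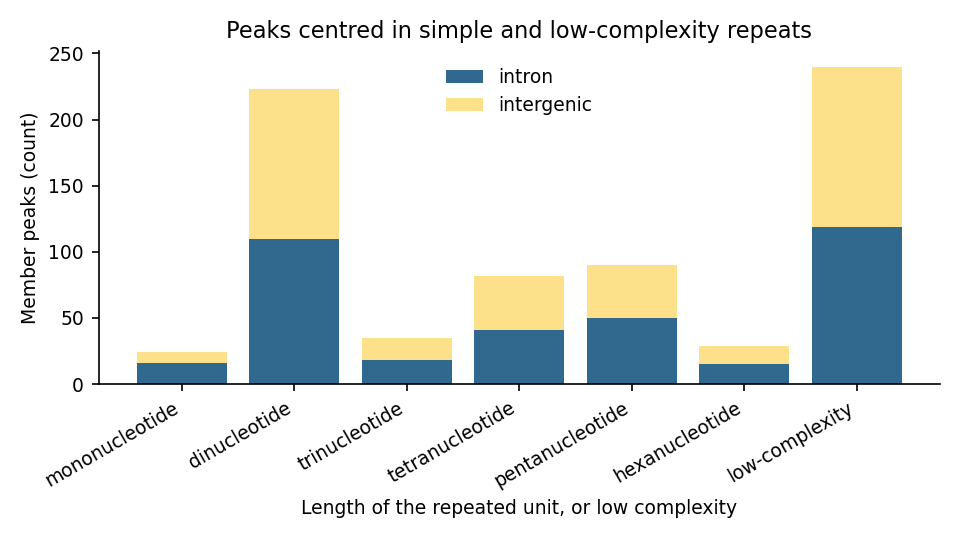
Number of member peaks by length of the repeated unit, with low-complexity sequence as a separate bar, split into intronic (lower part) and intergenic (upper part) peaks. Low-complexity sequence (240) and dinucleotides (223) are the tallest bars.

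The CA dinucleotide was the leading unit. (CA)n was named at 92 members and its reverse complement (TG)n at 77, together 169 of 723 (23.4%, 20.3 to 26.6). The GA dinucleotide followed among the simple repeats, with 23 peaks named (GA)n and 25 named (TC)n, while (AT) and (CG) dinucleotides had 3 members each. Among pentanucleotides, 18 members belonged to the class of (CAAAA)n and (TTTTG)n and 16 to that of (CCCCG)n and (CGGGG)n. Mononucleotide runs of A or T had 17 members and runs of C or G 7.

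C-rich or G-rich sequence was the largest class of low-complexity members. C-rich sequence had 60 members and G-rich 53, together 113 (15.6% of all members, 13.1 to 18.5). CT-rich and GA-rich sequence had 30 and 25 members, AT_rich 31, GC_rich 17, and A-rich and T-rich 12 and 10. The 8 leading classes, simple and low-complexity together, held 473 members (65.4%), while 23 of the 77 classes had a single member. In 8 pairs of a name and its reverse complement the counts were close to each other, the widest gap being that of (CA)n and (TG)n.

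Purine runs are members whose name has only A and G on 1 strand, with GA-rich, CT-rich, polypurine and polypyrimidine names included. They made up 178 members (24.6%, 21.5 to 27.9), 121 of them simple repeats. The others are low-complexity sequence, which is rich in purines on 1 strand but need not hold A and G alone. The GGAA core, to which ETS factors such as PU.1 bind, was repeated in the unit of 5 of the 483 simple repeats (1.04%, 0.337 to 2.40). These 5 were named after their values were seen. They lay 11.8 kb upstream of Cx3cr1, the fractalkine receptor of the monocyte lineage (chromosome 9, 120079823 to 120080321), 2.75 kb upstream of Pitpnc1 (chromosome 11, 107473220 to 107473718), in intron 2 of 12 of Phactr4 (chromosome 4, 132411528 to 132412026), in intron 3 of 9 of Anks1b (chromosome 10, 90733492 to 90733990) and 229 kb downstream of Mtx2 (chromosome 2, 75054948 to 75055446). The first was named (GGAA)n and the other 4 (TTCC)n.

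Units that repeat other blood factor cores were counted in the same way. CACCC, bound by KLF factors, was repeated in 13 simple repeats (2.69%, 1.44 to 4.56), the GATA core in 2 and TGTGG, bound by RUNX factors, in 1, each read on both strands and across the joint between copies. The GATA members, both named (TCTA)n, lay 2.48 kb upstream of Gm29805 (chromosome 16, 92384911 to 92385409) and in intron 2 of 8 of Dram2 (chromosome 3, 106553468 to 106553966). The TGTGG member, named (CACAC)n, lay in intron 1 of 21 of Sos1, a Ras exchange factor gene (chromosome 17, 80468414 to 80468912). These counts concern the letters of the named unit alone, and what else the 499 bp of a peak hold cannot be read from them. How often such units occur in the genome was not counted, so the shares cannot be called low or high.

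The repeat of chromosome ends, whose unit on the G-rich strand is TTAGGG, was named at 2 members, both as (CCCTAA)n. One lay in intron 2 of 3 of Tmem53 (chromosome 4, 117254015 to 117254513), 1.92 kb downstream of the TSS. The other was intergenic, 62.5 kb from the olfactory receptor gene Olfr1505 (chromosome 19, 13981253 to 13981751), with its nearest other peak 99.2 kb away.

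By place, 369 members lay in introns and 354 in intergenic sequence (49.0%, 45.3 to 52.7). No member carries a promoter, exon or UTR label in the list, which follows from the way the labels were given: all 14822 peaks with a repeat label of any class are intronic or intergenic, so a promoter or exon label takes the place of a repeat label. For this reason members were set only against other intron and intergenic peaks. Intergenic shares were 47.2% (46.8 to 47.6) for the 58809 peaks outside repeats, which also leave out the 1897 intron and intergenic peaks labelled CpG island, 43.3% for SINE, 53.3% for LINE, 62.3% (61.1 to 63.5) for LTR and 49.1% for DNA transposon peaks. The interval of the members holds the values for peaks outside repeats and for DNA transposons, and lies below the interval of the LTR peaks. It lies above the interval of the SINE peaks (41.7 to 44.9) and overlaps that of the LINE peaks (51.5 to 55.1). Of the members in introns, 131 of 369 (35.5%, 30.6 to 40.6) lay in intron 1, against 33.8% of intronic peaks outside repeats.

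Members lay a median of 27.0 kb from the nearest TSS (quartiles 10.1 and 63.6 kb), against 26.4 kb (10.1 and 64.7) for peaks outside repeats, 17.9 kb for SINE, 28.2 kb for LTR, 29.6 kb for DNA transposon and 30.7 kb for LINE peaks. Within 10 kb of a TSS lay 179 members (24.8%, 21.7 to 28.1), against 24.9% of the peaks outside repeats and 31.3% (29.9 to 32.8) of the SINE peaks. Between 50 and 100 kb lay 91 members (12.6%, 10.3 to 15.2), below the 16.3% (16.0 to 16.6) of peaks outside repeats, and between 100 and 250 kb lay 110 (15.2%, 12.67 to 18.04), above their 11.9% (11.6 to 12.1). In both of these ranges the intervals of the members and of the peaks outside repeats do not overlap. The ranges are neighbours and differ in opposite directions, and how far this depends on the edge at 100 kb was not tested. Between 10 and 50 kb lay 44.8% of the members (41.1 to 48.5), an interval that holds the 43.3% of peaks outside repeats. The farthest member, named (TAG)n, lay 712 kb from the TSS of Agbl1, in intron 22 of 22 (chromosome 7, 76941590 to 76942088).

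**Figure D2:**
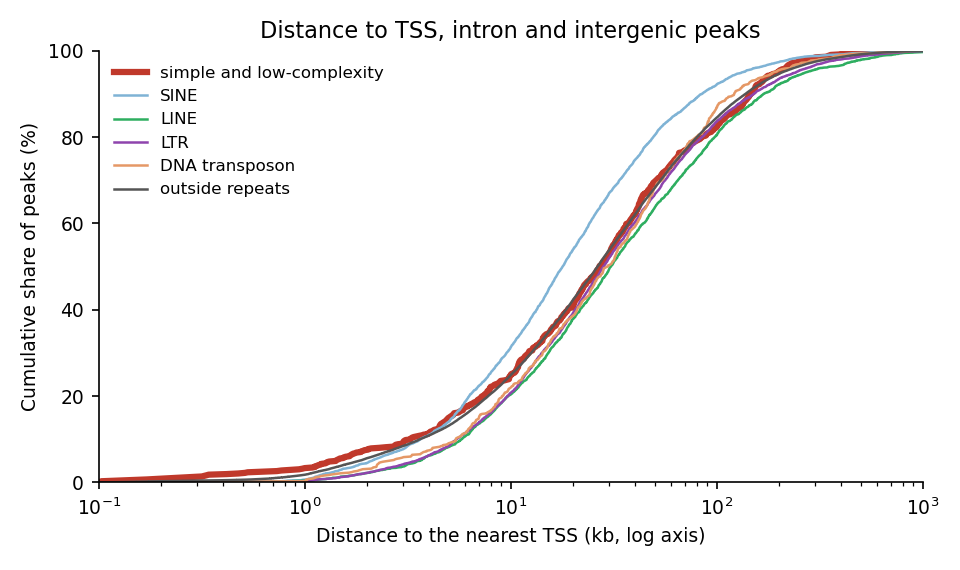
Cumulative share of peaks (%) against distance to the nearest TSS (kb, log axis) for members (thick line) and for intron and intergenic peaks in SINEs, LINEs, LTR elements and DNA transposons and outside repeats. At 1 kb the members' line has reached 3.18% and stands above the other 5, and at 10 kb it stands at 24.8%, against 24.9% outside repeats. No set shown, the members included, holds a peak labelled CpG island.

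Within 1 kb of a TSS lay 23 of 723 members (3.18%, 2.03 to 4.74), against 1.78% (1.67 to 1.89) of peaks outside repeats, 0.650% (0.421 to 0.958) of SINE, 0.393% of LINE, 0.245% of LTR and 0.267% of DNA transposon peaks. The interval of the members overlaps none of these 5 sets. Each peak has a single detailed label, so peaks labelled CpG island are absent from these sets and from the members alike. Of the 1897 CpG island peaks 41.2% (39.0 to 43.5) lay within 1 kb. With them added to the peaks outside repeats, a set formed after the values were seen, the share of these 60706 peaks was 3.01% (2.88 to 3.15), which the interval of the members holds. With CpG island peaks absent from every set, members therefore stood above the transposon classes and above peaks outside repeats. The set of 60706 differs from the members in holding CpG island peaks, so its share is not a like comparison. All 23 lay downstream of the TSS and none closer than 0.103 kb, since a peak at a TSS or just upstream of it counts as promoter. Their direction is thus set by the labels and is no result. The 23 lay in introns of the gene itself, 22 of them in intron 1.

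The repeats at these starts were mostly of G and C. In 16 of the 23 the name has only G and C. The closest were a (CCGCG)n peak in intron 1 of 15 of Tada2a, a histone acetyltransferase adaptor gene (chromosome 11, 84129216 to 84129714), and a C-rich peak in intron 1 of 16 of Fam160b2 (chromosome 14, 70599483 to 70599981), both 0.103 kb from the TSS. Others within 1 kb, chosen after their values were seen, were a (CCCCG)n peak 0.342 kb into Fancc, a Fanconi anaemia DNA repair gene (chromosome 13, 63431154 to 63431652), a (CCGCG)n peak 0.529 kb into Nfix, a nuclear factor I gene (chromosome 8, 84799560 to 84800058), and a C-rich peak 0.733 kb into Klf16, a zinc finger factor gene (chromosome 10, 80576314 to 80576812). A (CAGGG)n peak lay 0.418 kb into the kinase gene Sgk1 (chromosome 10, 21992392 to 21992890). CA repeats were present too, 0.476 kb into Tmem255a (chromosome X, 38251756 to 38252254) and 0.770 kb into Mycbp2 (chromosome 14, 103345781 to 103346279).

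Distance to a TSS differed between members of G and C alone and those of A and T alone. The 161 members named by G and C alone had 16 within 1 kb of a TSS (9.94%, 5.79 to 15.6) and 53 within 10 kb (32.9%, 25.7 to 40.8), with a median distance of 20.3 kb. The 80 members named by A and T alone had 1 within 1 kb and 8 within 10 kb (10%, 4.42 to 18.8), with a median of 34.8 kb. The 482 members with bases of both kinds stood between them at 24.5% (20.7 to 28.6) within 10 kb and 27.4 kb. The intervals of the G and C group and of the A and T group do not overlap at 10 kb. Neither group was even within itself. Of the 113 C-rich or G-rich members 31 lay within 10 kb (27.4%, 19.5 to 36.6), and of the other 48 of G and C alone 22 did (45.8%, 31.4 to 60.8), with medians of 27.0 and 10.6 kb. Of the 17 runs of A or T 5 lay within 10 kb (29.4%, 10.3 to 56.0), and of the other 63 of A and T alone 3 did (4.76%, 0.993 to 13.3).

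Units with a CG step, the site of DNA methylation in mammals, share members with the group of G and C alone, such as those named (CCCCG)n. Of the 34 simple repeats of this kind, 7 lay within 1 kb (20.6%, 8.70 to 37.9) and 16 within 10 kb (47.1%, 29.8 to 64.9), and their median distance was 10.5 kb. At 10 kb their interval overlaps that of the G and C group (25.7 to 40.8). The 48 members of G and C alone without C-rich or G-rich sequence were level with them (45.8%, median 10.6 kb). These groups by base make-up were formed after the list had been examined. No member carries the CpG island label, and whether a member also overlaps a CpG island was not tested.

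**Figure D3:**
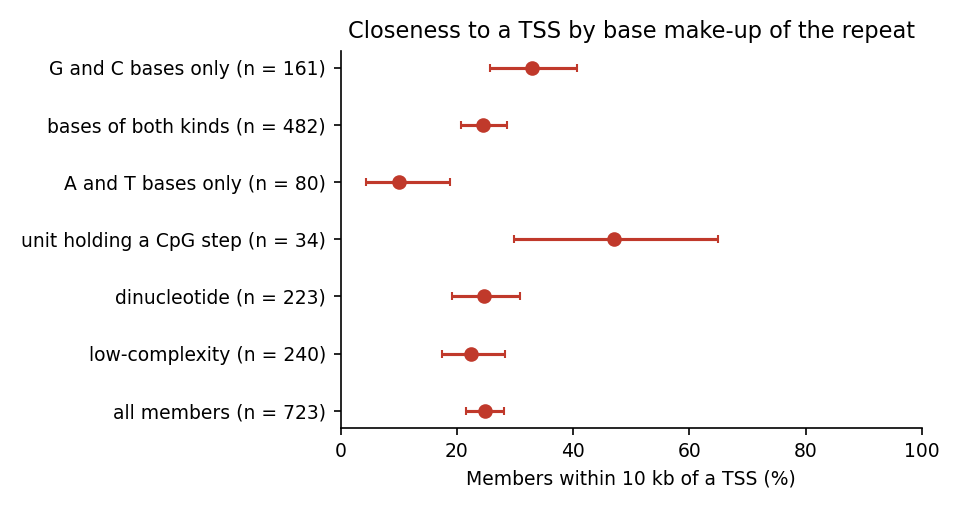
Share of members within 10 kb of a TSS (%), with exact 95% intervals, for repeats named by G and C alone, by bases of both kinds and by A and T alone, for units with a CpG step, dinucleotides, low-complexity sequence and all members. The group of G and C alone (32.9%) and the units with a CpG step (47.1%) lie to the right of the group of A and T alone (10%).

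Among the larger classes, the median distance was 26.1 kb for CA or TG dinucleotides, 27.0 kb for C-rich or G-rich sequence, 34.0 kb for GA or TC dinucleotides, 35.3 kb for GA-rich or CT-rich sequence and 35.2 kb for AT_rich sequence. GC_rich sequence lay nearest at 9.84 kb, though with 17 members only. Their members nearest to a TSS were the Tmem255a and Fam160b2 peaks above for the 2 leading classes, a CT-rich peak 1.17 kb into Ddx26b (chromosome X, 56455755 to 56456253), a (GA)n peak 2.76 kb into Trp53cor1, the lincRNA-p21 gene of the p53 response (chromosome 17, 29076114 to 29076612), and an AT_rich peak 1.55 kb upstream of Ctdsp1 (chromosome 1, 74389811 to 74390309). An A-rich peak lay 1.00 kb into Ppp1r9a (chromosome 6, 4904072 to 4904570), a (CAAAA)n peak 4.57 kb into D030045P18Rik (chromosome 10, 45812022 to 45812520) and a (T)n peak 0.279 kb into Gm27162 (chromosome 9, 32928438 to 32928936).

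Introns give the repeats a direction, since the plus strand is either the coding strand of the host gene or its template. The strand of the host gene was found for 358 of the 369 intronic members. Purine runs were uneven: in 30 of 92 the purines lay on the coding strand (32.6%, 23.2 to 43.2) and in 62 on the template strand, so that the transcript would carry the pyrimidines. The interval lies below 50%. The share was 33.8% (22.8 to 46.3) in the 68 simple repeats and 29.2% (12.6 to 51.1) in the 24 low-complexity members, the second interval reaching past 50%. For GA or TC dinucleotides alone it was 8 of 23 (34.8%, 16.4 to 57.3).

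The other features with a direction did not stand apart from 50%. They are not wholly separate, since (A)n and (T)n members are counted among the purine runs too. Without units of 1 base the purine share was 25 of 76 (32.9%, 22.5 to 44.6). TG lay on the coding strand in 45 of 84 CA or TG members (53.6%, 42.4 to 64.5), G in 28 of 56 C-rich or G-rich members (50%, 36.3 to 63.7), and T in 16 of 24 A-rich, T-rich, (A)n or (T)n members (66.7%, 44.7 to 84.4). How often purine runs of introns outside peaks lie on either strand was not analysed here, so the uneven split cannot be called particular to open chromatin.

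**Figure D4:**
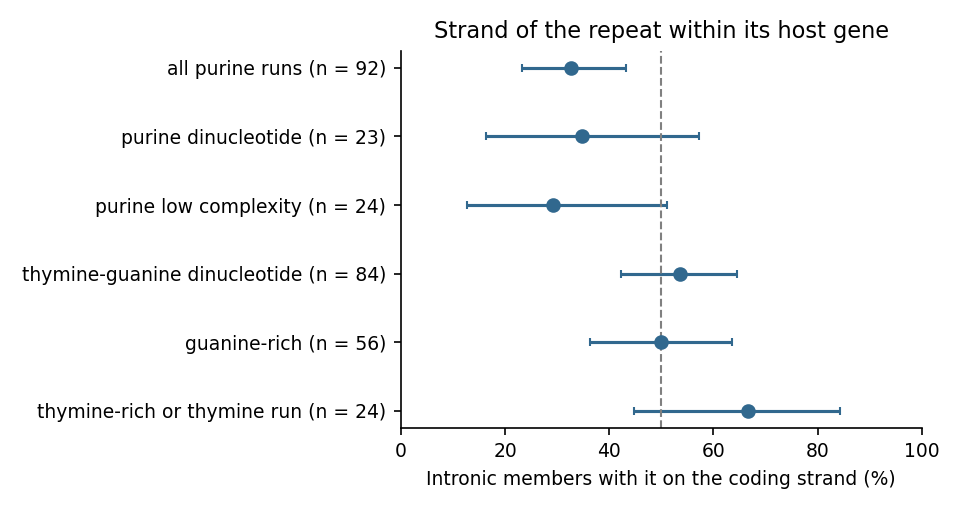
Share of intronic members (%) in which the named feature lies on the coding strand of the host gene, with exact 95% intervals and a dashed line at 50%. All purine runs (30 of 92, 32.6%) have an interval below the line, and the other rows have intervals that reach it. Rows share members: purine dinucleotides, purine low-complexity sequence and (A)n or (T)n runs are also among all purine runs.

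The closeness of members to other peaks was within counting error of that of peaks outside repeats. Another peak lay within 5 kb, from centre to centre, for 383 members (53.0%, 49.3 to 56.7), against 53.5% (53.1 to 53.9) of peaks outside repeats, 53.9% of SINE, 52.8% of DNA transposon, 49.0% of LTR and 46.4% (44.6 to 48.2) of LINE peaks. The median gap to the nearest other peak was 4.52 kb for members and 4.46 kb for peaks outside repeats. Among the members themselves, 2 pairs lay within 10 kb of each other. How many pairs another set of peaks of this size would give was not tested. A (TC)n and a (CA)n peak lay 800 bp apart downstream of Gm38404 (chromosome 6, 127265066 to 127265564 and 127265866 to 127266364). A (TG)n and a (CCGCG)n peak lay 3385 bp apart in introns 1 and 3 of Bbc3, which encodes the cell death protein PUMA (chromosome 7, 16310536 to 16311034 and 16313921 to 16314419). The next 3 pairs lay 10761, 10915 and 11250 bp apart, at Zmynd11, Hivep3 and Nfix.

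The members were spread over the genome. Their share of a chromosome's peaks was 0.779 ± 0.117% (mean ± SD over 19 autosomes), with the lowest value on chromosome 16 (19 of 3353, 0.567%) and the highest on chromosome 13 (45 of 4414, 1.02%). The X chromosome had 17 of 1930 (0.881%, 0.514 to 1.41). The interval of each of the 19 autosomes held the overall share. Chromosome Y had none among its 14 peaks, which allows a share of up to 21.4%.

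**Figure D5:**
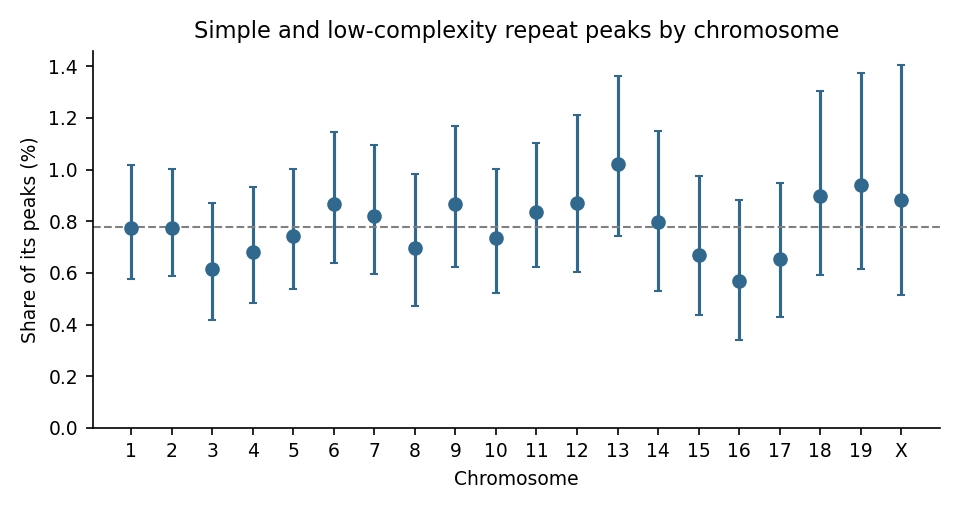
Members as a share (%) of all peaks of a chromosome, with exact 95% intervals and the overall share of 0.779% as a dashed line. Autosomes run between 0.567% (chromosome 16) and 1.02% (chromosome 13), and every interval crosses the line.

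The nearest gene of a member, by TSS, coded for a protein at 590 members and was a non-coding RNA gene at 125 (17.3%, 14.6 to 20.2). The non-coding share was 14.3% (14.0 to 14.5) for peaks outside repeats and 10.7% (9.77 to 11.8) for SINE peaks. For LTR peaks it was 14.7% (13.8 to 15.6), for DNA transposon peaks 13.7% (11.3 to 16.4) and for LINE peaks 13.6% (12.4 to 14.8). The interval of the members lies just above that of peaks outside repeats and above that of SINE peaks. It overlaps those of the LTR, DNA transposon and LINE peaks. In introns the gene named as nearest was the host gene itself at 272 of 369 members (73.7%), so at the others a peak inside one gene is listed under another. In all, 686 genes were nearest to a member and 37 of them to 2 members, with no gene above 2.

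The 37 genes with 2 members tied for the most. Among them are the calcium channel gene Cacna1e and the semaphorin gene Sema3d. The 7 described here were chosen after their values were seen. Ikzf2, which encodes the Ikaros relative Helios, had a G-rich peak 1.48 kb upstream of its TSS (chromosome 1, 69687189 to 69687687) and a (TTTC)n peak in intron 3 of 7 (chromosome 1, 69655122 to 69655620), of 23 peaks in all. Klrg1, a lectin-like receptor gene of natural killer and T cells, had a (CTG)n and a (CA)n peak among only 4 peaks. Rgs1, a regulator of chemokine receptor signalling in lymphocytes, had a (CAAA)n and a (CA)n peak 60.3 and 107 kb upstream, among 21 peaks. Fth1, the ferritin heavy chain gene, had a (CA)n peak 1.88 kb upstream (chromosome 19, 9978470 to 9978968) and a (CAGGG)n peak 14.3 kb upstream, among 9 peaks. Ly86, which encodes a partner of a Toll-like receptor relative on B cells, had a CT-rich and a (TC)n peak 96.7 and 138 kb downstream, among 39. Maml3, a Notch coactivator gene, had 2 (CA)n peaks among 23, and the phosphatase gene Dusp6 had a (GA)n and a (TTTTTG)n peak among 33. The Ikzf2, Klrg1 and Rgs1 pairs were each of 2 different kinds, while both Ly86 peaks are named by pyrimidines on the plus strand.

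At genes of the blood lineages the members' share was 14 of 1081 peaks (1.30%, 0.710 to 2.16), over 5 lists of 20 genes each. The interval of that share holds the 0.779% of all peaks. By list it was 5 of 317 peaks for stem and multipotent progenitor genes (1.58%, 0.514 to 3.64), 3 of 204 for B cell genes, 3 of 197 for T cell genes, 3 of 227 for erythroid and megakaryocyte genes and 0 of 136 for granulocyte and macrophage genes, which allows a share of up to 2.21%. Housekeeping genes had 0 of 98 peaks, which allows up to 3.06%, genes of unrelated tissues 1 of 68, the Mbp peak named (CAG)n, and genes of other cells that a sort could hold 1 of 157. No list had a gene with more than 1 member, so every gene with a member tied for the lead of its list.

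In the stem and multipotent progenitor list the members lay at Erg, Etv6, Lmo2, Mecom and Meis1. The Erg peak, G-rich, lay in intron 1 of 10 of this ETS factor gene (chromosome 16, 95570645 to 95571143), and the Etv6 peak, C-rich, in intron 3 of 8 of another ETS gene (chromosome 6, 134170857 to 134171355). Mecom, which encodes the stem cell factor Evi1, had a GA-rich peak in intron 4 of 14 (chromosome 3, 29991550 to 29992048). Lmo2, a bridging protein of the stem cell factor complex, had a (TG)n peak 26.0 kb upstream (chromosome 2, 103931704 to 103932202), with another peak 0.960 kb away. The Meis1 peak is the G-rich one printed above (chromosome 11, 18877513 to 18878011). Of these 5, 3 were C-rich or G-rich, a class that held 113 of all 723 members (15.6%), and 5 are too few for a comparison.

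In the B cell list, Ebf1, the early B cell factor, had a (TCTCTG)n peak in intron 5 of 15 (chromosome 11, 44633056 to 44633554), Blnk, the linker of B cell receptor signalling, a (TC)n peak 14.3 kb upstream (chromosome 19, 41008604 to 41009102) and Foxo1, a forkhead factor, a GC_rich peak 71.9 kb upstream (chromosome 3, 52196177 to 52196675). In the T cell list, Gata3 had an (A)n peak in intron 4 of 5 (chromosome 2, 9867324 to 9867822), Lef1, a Wnt pathway factor, a (CTCG)n peak 164 kb upstream (chromosome 3, 130945968 to 130946466) and Themis, a thymocyte selection gene, a (GA)n peak 74.4 kb away that lies in intron 31 of 31 of Ptprk (chromosome 10, 28593677 to 28594175). In the erythroid and megakaryocyte list, Bcl11a, a repressor of fetal globin that the B lineage also needs, had a (CTG)n peak 1.70 kb upstream (chromosome 11, 24076106 to 24076604), Ank1, the red cell ankyrin, a (TG)n peak in intron 36 of 45 (chromosome 8, 23122019 to 23122517) and Itgb3, a platelet integrin gene, a G-rich peak in intron 12 of 14 (chromosome 11, 104661186 to 104661684). Among genes of other cells, Klrb1c, which encodes the natural killer marker NK1.1, had a (CA)n peak in intron 1 of 5 (chromosome 6, 128786442 to 128786940). With no more than 5 members in a list, the kinds of repeat cannot be compared between lineages at this number.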

How the data were processed

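ATAC-seq peaks of 14 libraries from 7 sorted cell types, 2 each, were used as the merged, annotated list the authors deposited. Per the file headers, annotatePeaks was run on it for mm10. HOMER 4.10.2 is credited to the submitters' processing notes. For the aligner, the peak caller and the merging, nothing is stated in these sources. Peak numbers run without a gap to 92842, so the list is whole, and each peak is 499 bp wide. The deposited peak score is 0 throughout and was left aside; start, end and distance to TSS are the authors' positions in bp.

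Members and gene lists were chosen with earlier results of these data known. Repeat names were reduced to unit classes by rotation and reverse complement. Base make-up was read from the letters of the name, with C-rich read as C. Host gene strand came from the RefSeq promoter table (285 members) or from repeated TSS positions implied by the list (73); the 2 ways gave the same strand for 6886 of 6889 genes that had both. Shares have exact 95% intervals from SciPy 1.17.1 (Python 3.11.15, pandas 2.3.3), and no p-value was computed. Code for unit classes was tested on simulated data. Named were the 10 genes with the most members (with ties, 37, not all named in the text), the member nearest to a TSS in each of the 8 leading classes, listed genes leading their list, the 5 closest pairs and all telomere repeats. Alternatives were autosomes only, neighbours within 10 kb counted once, simple repeats only, other distances and other ways of merging names.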

Additional observations from a re-analysis of the deposited data

How the results depend on the processing

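Of 30 alternatives, 21 gave a value within the 95% interval of the reported one and 9 did not. With intron and intergenic peaks alone as denominator, members were 0.957%. The leading unit was 35.0% of simple repeats alone, and 12.7% of members when reverse complements were kept apart. Counting A-rich, T-rich, C-rich and G-rich sequence as purine runs, an alternative chosen after seeing the data, gave 43.3%. Keeping CpG island peaks among the peaks outside repeats, likewise chosen after seeing the data, gave 3.01% of them within 1 kb of a TSS in place of 1.78%. Other distances moved the shares by construction: 3.18% lay within 1 kb and 69.6% within 50 kb of a TSS, and 11.3% had another peak within 1 kb and 89.3% within 20 kb. The intronic purine share was 32.9% for units longer than 1 base and 33.8% for simple repeats alone. No paired analysis was possible because the list has no column per library, and for the same reason no library could be left out. A stricter peak threshold could not be tried, since the score is 0 for every peak. Depth limits how many repeat peaks could be found, and it is unknown.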
